A study of Arabidopsis thaliana with 32 samples.

Results

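The comparison described here is the last step down in CO2 in growth light (GL): 4 Arabidopsis leaf samples kept without CO2 ("0 ppm CO2 GL") against 4 kept at 100 ppm CO2 ("100 ppm CO2 GL"), 8 of the 32 samples of the series. Members were chosen by the CO2 and light labels alone, and all genes were compared. All plants were wild-type Col-0 without any transgene, were grown in short days (8 h of light, with a photon flux of 100 µmol m-2 s-1) and were moved late in the morning to a chamber where they stayed for 3 h at the stated CO2 concentration and under the same growth light. The other 24 samples were 400 and 1000 ppm CO2 in GL, and all 4 CO2 levels under PSI-PI, a light regime that damages photosystem I. RNA came from whole leaves, so fewer cells of a type and less RNA per cell cannot be told apart.

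CO2 is the carbon substrate of the Calvin-Benson cycle in the chloroplast and the main sink for the electrons that the light reactions move. At low CO2, Rubisco takes up oxygen in its place, and photorespiration salvages the product and releases CO2 again. At 0 ppm the air supplies no carbon at all. Nuclear genes encode the antenna proteins, most photosystem subunits and nearly all enzymes of these pathways, and their transcript levels follow light, sugars, hormones and signals from the chloroplast.

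Values are normalized counts, the sequencing counts per gene after the scaling for library and transcript length made by the study's own pipeline, and their sums were 19964587 to 20685860 in the 0 ppm samples and 25856591 to 26581413 in the 100 ppm samples. The 10 most abundant genes held 7.26 to 8.02% of that sum at 0 ppm and 11.4 to 12.7% at 100 ppm. Replicates 1 and 2 at 0 ppm stood further from their own group than the others, with 1646 and 1597 genes at least 2-fold from the group median, against 672 and 792 in replicates 3 and 4 and 689 to 1055 in the 100 ppm samples. Among cell type markers, the 3 phloem companion cell genes summed to 4281 to 7482 at 0 ppm and 6146 to 7434 at 100 ppm, and none was called. None of the 5 root hair markers was among the genes tested. The 3 epidermis and trichome markers tested summed to 910 to 1672 at 0 ppm and 1588 to 2024 at 100 ppm, and none was called. PDF1, 1 of them, was listed at 0 in every 0 ppm sample. The largest fall among them was -1.36 log2 units, so PDF1 was near 0 at 100 ppm too. Of the 6 guard cell markers 5 were not called, and FAMA, the master regulator of guard cell fate, averaged 217 ± 37.6 at 0 ppm and 220 ± 34.2 at 100 ppm (mean ± SD, n = 4 each, here and below). The sixth was TGG1, a myrosinase of guard cells and phloem idioblasts, at 5796 ± 3262 in 0 ppm samples and 42330 ± 13750 in 100 ppm samples. It set the summed guard cell level, 3493 to 10620 at 0 ppm and 28900 to 61330 at 100 ppm. The part of such shifts in the results was not tested.

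Of 21469 genes tested, 2736 (12.7%) differed at least 2-fold on the log2(normalized count + 1) scale with an adjusted p under 0.05, from the moderated test of limma with Benjamini-Hochberg adjustment. Of these, 984 (4.58% of the genes tested) were higher and 1752 (8.16%) lower at 0 ppm. With no minimum fold change, 7803 genes (36.3%) had an adjusted p under 0.05. The median difference was 1.43 log2 units among the higher genes and -1.55 among the lower genes, and it was 0.03 over all genes. Falls also reached further: 477 genes were lower by 2 log2 units or more and 214 were higher by as much. In 2169 of the 2736 genes the 4 values of each group did not overlap, where 29.7% of all genes tested had groups that did not overlap. The direction of the split depends on the scaling. After quantile normalization 1125 genes were higher and 1554 lower, so that 58% of the calls were falls. When every sample was set to the same total, 2529 genes were higher and 1081 lower, since that scaling moved the median of all genes to 0.37 log2 units, and 29.9% of the calls were then falls in place of 64%.

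**Figure D1:**
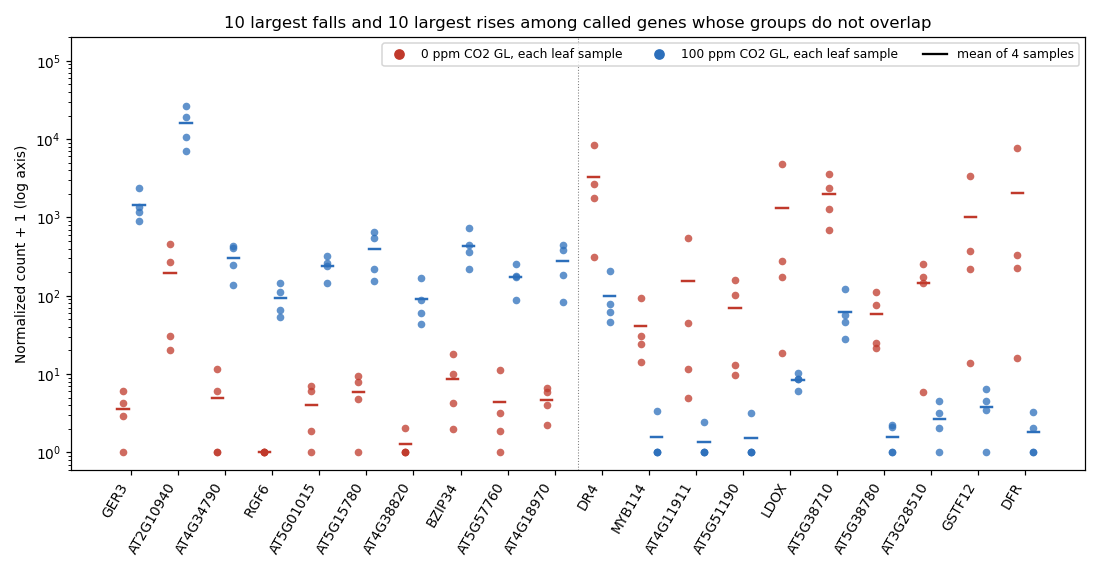
Normalized count plus 1 on a log axis for the 10 largest falls (left of the dotted line) and the 10 largest rises (right of it) among called genes whose groups do not overlap, with each leaf sample as a point and the mean of 4 samples as a bar. The gap between the groups is part of how the genes were chosen, and the 0 ppm points of DFR run over the range 15 to 7678.

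Promoters are printed for 5 genes that carry the results below, 3 that were higher at 0 ppm (DFR, CHS and AOS) and 2 that were lower (GER3 and EXPA11). Each is the 250 bases before the gene start in RefSeq's annotation of TAIR10.1, read 5′ to 3′ on the gene's strand, with matches to the motifs searched in capitals.
DFR, chr5:17166033-17166282, minus strand: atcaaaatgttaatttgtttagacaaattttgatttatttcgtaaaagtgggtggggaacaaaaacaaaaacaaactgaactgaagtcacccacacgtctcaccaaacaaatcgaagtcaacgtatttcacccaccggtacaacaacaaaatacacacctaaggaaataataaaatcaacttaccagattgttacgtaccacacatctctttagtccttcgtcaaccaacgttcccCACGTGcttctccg
CHS, chr5:4488226-4488475, plus strand: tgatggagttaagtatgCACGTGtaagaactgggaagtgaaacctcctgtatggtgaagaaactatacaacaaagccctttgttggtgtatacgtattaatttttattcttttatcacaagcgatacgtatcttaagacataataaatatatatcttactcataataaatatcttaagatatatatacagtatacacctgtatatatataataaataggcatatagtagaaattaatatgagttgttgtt
AOS, chr5:17099596-17099845, minus strand: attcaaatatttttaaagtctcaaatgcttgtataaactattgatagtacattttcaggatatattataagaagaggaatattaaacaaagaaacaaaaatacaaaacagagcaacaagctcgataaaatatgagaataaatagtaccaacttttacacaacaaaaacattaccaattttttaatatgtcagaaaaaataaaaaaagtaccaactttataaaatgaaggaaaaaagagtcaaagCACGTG
GER3, chr5:6976037-6976286, minus strand: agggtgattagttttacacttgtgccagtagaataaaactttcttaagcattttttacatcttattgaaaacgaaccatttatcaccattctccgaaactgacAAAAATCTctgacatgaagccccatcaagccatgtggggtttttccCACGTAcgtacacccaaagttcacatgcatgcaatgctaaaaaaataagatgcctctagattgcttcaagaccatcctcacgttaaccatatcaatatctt
EXPA11, chr1:6999840-7000089, minus strand: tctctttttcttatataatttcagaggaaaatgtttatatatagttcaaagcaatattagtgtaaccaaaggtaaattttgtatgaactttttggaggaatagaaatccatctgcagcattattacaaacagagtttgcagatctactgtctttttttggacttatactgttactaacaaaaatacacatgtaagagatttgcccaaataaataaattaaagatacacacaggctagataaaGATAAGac
The capitals in DFR, CHS and AOS are the G-box CACGTG, a site bound by bHLH and bZIP factors, which starts 14, 233 and 6 bases before the gene start. Those in GER3 are AAAAATCT and CACGTA, and that in EXPA11 is the I-box GATAAG. Both strands were searched for these 4 motifs and for the W-box TTGACC, the GCC-box GCCGCC and the evening element AAAATATCT in 21283 promoters of the genes tested, without merging motifs that overlap. AAAAATCT was in 6.74% of all promoters, CACGTA in 6.59%, the I-box in 12.4%, the W-box in 12.2%, the GCC-box in 1.96% and the evening element in 2.57%. CACGTG was in 7.25% of all promoters, in 9.67% of those of genes higher at 0 ppm and in 5.82% of those of genes lower at 0 ppm. It was in 5 of the 18 promoters of flavonoid and anthocyanin enzymes, 5 of 17 of JAZ repressors and jasmonate output genes, 4 of 15 of light-harvesting complex II genes, 4 of 10 of photosystem II genes, 2 of 15 of jasmonate synthesis genes, 2 of 12 of photosystem I genes, 1 of 6 of light-harvesting complex I genes, 0 of 7 of carbonic anhydrases, 0 of 9 of expansins and 1 of 69 of SAUR genes. All 3 printed promoters of genes higher at 0 ppm hold CACGTG, so they do not stand for the risen genes. The W-box was in 14.3% of promoters of higher genes and 10.6% of those of lower genes, and the I-box in 11.4% and 13%. The I-box was in 8 of 17 promoters of JAZ repressors and jasmonate output genes and in 0 of 18 of flavonoid and anthocyanin enzymes. A match is a description of the letters and not of a bound site.

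The largest falls and rises described first are the 10 on each side with the largest difference among called genes that averaged at least 20 normalized counts in either group and whose groups did not overlap. In 9 of the 10 falls the 0 ppm samples were all near 0, and AT2G10940 was the exception. GER3, a germin-like protein of the cell wall, had 3.22, 0, 1.93 and 5.02 normalized counts in the 0 ppm samples, against 1344, 2373, 1176 and 902 in the 100 ppm samples. Its log2 difference was -8.85 (SE 1.22, adjusted p = 4.38e-06). AT2G10940, a lipid-transfer-like protein, had 452, 19.2, 29.8 and 267 at 0 ppm and 10698, 26561, 19281 and 7035 at 100 ppm, an 82.7-fold higher mean at 100 ppm. RGF6, a root meristem growth factor peptide, was listed at 0 in every 0 ppm sample and at 52.6 to 143 in the 100 ppm samples. BZIP34, a bZIP transcription factor, had 17.1, 0.989, 3.26 and 8.99 at 0 ppm and 357, 724, 446 and 217 at 100 ppm. The SAUR-like gene AT4G34790, the Ole e 1 and extensin family gene AT5G15780, the GDSL lipase AT4G18970 and the uncharacterized genes AT5G01015, AT4G38820 and AT5G57760 complete the 10 falls, at -5.71 to -6.58 log2 units. Their 0 ppm samples held at most 10.7 normalized counts each, while their 100 ppm samples held at least 43.

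The 10 rises were led by late anthocyanin genes. UF3GT (5.82), AT5MAT (4.93) and MYB90 (4.82 log2 units) were called higher too but had groups that overlapped, and so are not among them. DFR, dihydroflavonol reductase, had 15, 7678, 222 and 326 normalized counts in the 0 ppm samples, against 0, 2.31, 0 and 1.08 in the 100 ppm samples (log2 difference 7.57, SE 1.62, adjusted p = 0.000652). The flavonoid oxygenase LDOX had 17.5, 4828, 172 and 274 at 0 ppm and 7.77, 9.45, 5.11 and 7.7 at 100 ppm. GSTF12, the glutathione transferase that carries anthocyanins to the vacuole, had 12.9, 3429, 219 and 372 at 0 ppm and 0, 3.48, 2.51 and 5.4 at 100 ppm. In all 3 genes replicate 2 was the highest 0 ppm sample and replicate 1 the lowest. AT5G38710, which RefSeq lists as a methylenetetrahydrofolate reductase family protein, had 695, 3577, 2352 and 1289 at 0 ppm and 26.8, 44.7, 55.3 and 119 at 100 ppm, a narrower spread with the same highest and lowest sample. AT5G51190, a gene with an integrase-type DNA-binding domain, had 156, 8.74, 101 and 12 at 0 ppm and 0, 0, 0 and 2.15 at 100 ppm, so here replicate 1 was the highest and replicate 2 the lowest. DR4, described in RefSeq as drought-repressed, averaged 3303 ± 3578 at 0 ppm and 96.8 ± 73.2 at 100 ppm. The remaining rises of the 10 were MYB114, AT4G11911, AT5G38780 and AT3G28510, at 4.55 to 5.07 log2 units, and AT3G28510 had only 4.95 in replicate 4 beside 143 to 252 in the other 0 ppm samples. Without replicates 1 and 2 at 0 ppm AT3G28510 was not called (3.78, adjusted p = 0.172).

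Genes of the light reactions were lower at 0 ppm as a group. All 12 photosystem I subunit genes, 5 of 6 light-harvesting complex I genes, 13 of 15 light-harvesting complex II genes and 8 of 10 photosystem II genes fell, none rose, and the list medians were -1.52, -1.57, -2.21 and -1.35 log2 units against 0.03 over all genes, where 8.16% of the genes tested fell. Together with the Calvin-Benson genes, 63 photosynthesis genes held 8.56 to 12.9% of the summed normalized counts in 0 ppm samples and 23.1 to 26.1% in 100 ppm samples. LHCB3, an antenna protein of photosystem II, had 31145, 13866, 13043 and 25634 at 0 ppm and 118530, 138280, 133470 and 119130 at 100 ppm, a log2 difference of -2.70 (SE 0.29, adjusted p = 3.44e-07). LHCB1.4, the antenna gene with the largest fall, averaged 6553 ± 7255 at 0 ppm and 99750 ± 20780 at 100 ppm. LHCB1.5, an abundant copy, averaged 179570 ± 65072 at 0 ppm and 510400 ± 39366 at 100 ppm. The LHCB1 and LHCB2 copies are close paralogs, so the split of reads among them is uncertain, although 13 of the 15 genes of the list fell. Of photosystem I, PSAN, a lumenal subunit at the plastocyanin side, had 20535, 13470, 15695 and 25949 at 0 ppm and 89701, 81122, 68620 and 63522 at 100 ppm, and LHCA1, an antenna protein of photosystem I, averaged 79079 ± 16513 at 0 ppm and 220130 ± 18249 at 100 ppm. Under equal totals 13, 5, 8 and 4 genes of light-harvesting complexes II and I and photosystems I and II fell, and after quantile normalization 9, 1, 4 and 2. Of all 21469 genes tested 1081 fell under equal totals and 1554 after quantile normalization. LHCA1 (-0.59) and LHCB1.5 (-0.47, adjusted p = 0.195) were among the members of these lists not called after quantile normalization.

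**Figure D2:**
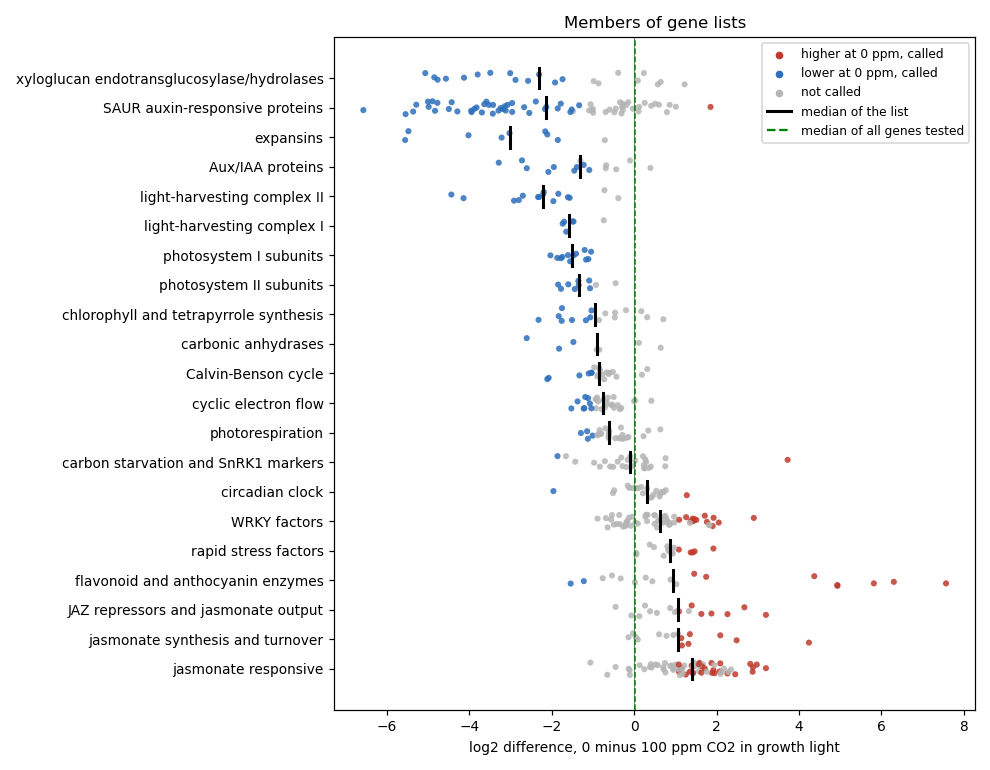
Log2 difference of 0 minus 100 ppm CO2 in GL for each tested member of 21 gene lists, with called genes in color, list medians as black bars and the median of all genes as a dashed line. The medians of the cell wall, auxin and light-harvesting lists lie left of 0 and those of the jasmonate lists right of it, where the median of the jasmonate responsive list is 1.39.

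Pigment synthesis and the carbon pathways shared the direction with smaller sizes. Over all genes tested 8.16% fell and 4.58% rose. Of the 16 chlorophyll synthesis genes 8 fell and none rose (median -0.95), among them HEMA1, the glutamyl-tRNA reductase that commits glutamate to the pathway, with 1840, 1726, 1947 and 2004 at 0 ppm and 5330, 7832, 6282 and 6132 at 100 ppm. GUN5/CHLH, a subunit of magnesium chelatase, averaged 5626 ± 2053 at 0 ppm and 19411 ± 4572 at 100 ppm, and CHLM, the methyltransferase of the next step, had 3108 to 3967 at 0 ppm and 7311 to 8867 at 100 ppm. Of the Calvin-Benson cycle, 6 of 20 genes fell and none rose (median -0.84), including the Rubisco small subunits RBCS1A, at 147350 ± 35439 in 0 ppm samples and 363450 ± 28449 in 100 ppm samples, and RBCS3B, at 51500 ± 15499 in 0 ppm samples and 210650 ± 21739 in 100 ppm samples. Photorespiration had 4 of 25 genes lower and none higher (median -0.62): the glycine cleavage subunit GDCH2 averaged 3671 ± 834 at 0 ppm and 8873 ± 816 at 100 ppm, and the aminotransferase GGAT1, at -0.84 log2 units, and HPR1, at -0.82, missed the 2-fold threshold. Of the cyclic electron flow genes 8 of 29 fell (median -0.75), and 4 did without replicates 1 and 2 at 0 ppm. Under equal totals 5 chlorophyll, 2 Calvin-Benson, 2 cyclic flow and 0 photorespiration genes fell, where 1081 of all 21469 genes tested fell. CHLM (-0.81), RBCS1A (-0.96) and GDCH2 (-0.93) were then under the 2-fold threshold, and after quantile normalization CHLM was at -0.998 and RBCS1A at -0.38 (adjusted p = 0.358), neither of them called.

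Carbonic anhydrases, which interconvert CO2 and bicarbonate, had 3 of 7 genes lower and none higher. BCA1, the abundant chloroplast enzyme, had 30892, 7246, 21493 and 17712 at 0 ppm and 74978, 113110, 135250 and 103340 at 100 ppm (log2 difference -2.61, SE 0.44, adjusted p = 5.55e-05). BCA2 and ACA1 fell too (-1.48 and -1.82 log2 units), and the plasma membrane form BCA4 differed by -0.91. Without replicates 1 and 2 at 0 ppm ACA1 was not called (-0.79, adjusted p = 0.301). Among the 16 stomatal CO2 signalling genes 1 was higher (EPF2, 6.25%) and 2 lower (GHR1 and AT3G01490, 12.5%). Over all genes tested these shares were 4.58% and 8.16%. The anion channel SLAC1 (-0.07, adjusted p = 0.861) and the kinase HT1 (-0.25, adjusted p = 0.461) were not called. EPF2, a peptide that limits stomatal density, was at 1.26 log2 units (adjusted p = 0.0296) and was not called without replicate 1 or 3 at 0 ppm or replicate 2, 3 or 4 at 100 ppm (1.1 to 1.52 over the samples left out), nor with a variance for each group (adjusted p = 0.0713) or without replicates 1 and 2 at 0 ppm (0.107).

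Genes of wall loosening and auxin response were lower at 0 ppm. The shares over all genes tested were 8.16% lower and 4.58% higher. Of 9 expansins, proteins that loosen the cell wall, 8 fell and none rose (median -3.03). EXPA8 had 385, 11.4, 66.3 and 146 normalized counts at 0 ppm and 3218, 4980, 4017 and 2932 at 100 ppm, and EXPA11 had 29.9, 11.3, 20.1 and 51.6 at 0 ppm and 1392, 1817, 1352 and 612 at 100 ppm (log2 difference -5.56, SE 0.60, adjusted p = 3.25e-07). Replicate 2 was the lowest 0 ppm sample in both genes, and neither gene overlapped. The gene families that follow were chosen after their values were seen, from the product names in RefSeq, and carry no test of the family. Of 21 xyloglucan endotransglucosylase/hydrolases, which cut and rejoin wall xyloglucan, 13 fell and none rose (median -2.31), and XTH4 averaged 351 ± 191 at 0 ppm and 8157 ± 3188 at 100 ppm. Of 43 arabinogalactan proteins 30 fell and none rose (median -1.61). Of 69 SAUR auxin-responsive proteins, small early auxin response proteins, 40 fell and 1 rose (median -2.13), and SAUR22 averaged 20.8 ± 12.5 at 0 ppm and 578 ± 234 at 100 ppm. Many SAUR genes lie in tandem arrays of near copies, where reads can be shared. Of 15 Aux/IAA repressors 9 fell and none rose, with IAA29 at 123 ± 77.4 at 0 ppm and 664 ± 147 at 100 ppm. Aquaporins, channels for water, had 10 of 25 genes lower and 1 higher, and PIP1C averaged 718 ± 300.3 at 0 ppm and 5006 ± 986.7 at 100 ppm. Germin-like proteins had 9 of 13 genes lower and 1 higher, and tubulins 8 of 24 lower and none higher. The expansin, SAUR and xyloglucan counts were 8, 38 and 13 under equal totals, while those of aquaporins and tubulins were 6 and 2. That scaling had 1081 of all 21469 genes tested lower. Without replicate 2 at 0 ppm 6 germin-like genes fell, and without replicate 3 at 0 ppm 6 Aux/IAA genes.

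Genes of anthocyanin synthesis rose, with values that differed widely between the 0 ppm samples. Of 18 flavonoid and anthocyanin enzymes 8 rose and 2 fell, where 4.58% of all genes tested rose. Beside DFR, LDOX and GSTF12 these included CHS, chalcone synthase at the entry to the pathway, with 51.4, 11262, 776 and 1165 at 0 ppm and 52.9, 42.8, 45 and 25.8 at 100 ppm, and the decorating enzymes UF3GT and AT5MAT, which averaged 579 ± 1057 and 194 ± 340 at 0 ppm and 0.269 ± 0.538 and 0.551 ± 1.1 at 100 ppm. Replicate 1 at 0 ppm was thus inside the 100 ppm range for CHS and replicate 2 far above the others. The remaining 2 of the 8 were F3'H, flavonoid 3'-hydroxylase, with 25.7, 548, 23.9 and 27.7 at 0 ppm and 16.5, 16.2, 26.3 and 21.5 at 100 ppm, and the anthocyanin glucosyltransferase UGT75C1, with 124, 2055, 219 and 219 at 0 ppm and 65, 94.9, 124 and 124 at 100 ppm. Their calls rest on replicate 2 at 0 ppm. F3'H was at 1.46 log2 units (adjusted p = 0.0415), and at 0.37 without that sample, and was not called either without replicate 1, 2 or 4 at 100 ppm. UGT75C1 was at 1.75 log2 units (adjusted p = 0.0327), and at 0.87 without it, and was not called either without replicate 1 or 2 at 100 ppm. The 2 falls were FLS1, flavonol synthase, at 18.7 ± 5.2 in 0 ppm samples and 55.2 ± 5.99 in 100 ppm samples, and PAL2, a phenylalanine ammonia-lyase, at 609 ± 214 in 0 ppm samples and 1375 ± 197 in 100 ppm samples (not called under equal totals, -0.86). Of 17 regulators 5 rose and 2, LBD38 and LBD39, fell. LBD38 was at -1.06 log2 units, and was not called without replicate 2 (-0.92) or 3 (-0.99) at 0 ppm or replicate 2 at 100 ppm (-0.96), nor under equal totals (-0.70). Those that rose were MYB75, MYB90, MYB113 and MYB114, which activate the late genes, and TT8, their bHLH partner. MYB75 had 82.5, 3464, 584 and 896 at 0 ppm and 51.8, 60.2, 108 and 67.9 at 100 ppm, a log2 difference of 3.15 (SE 1.03, adjusted p = 0.0176), and without replicate 2 at 0 ppm it was 2.33 with adjusted p = 0.0897. The repressor MYBL2 (-0.23, adjusted p = 0.377) was not called.

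Of 15 genes of jasmonate synthesis and turnover 7 rose and none fell (median 1.06). LOX2, the chloroplast lipoxygenase that starts the pathway, had 19824, 276040, 41368 and 60548 at 0 ppm and 6337, 8950, 22881 and 32100 at 100 ppm (log2 difference 2.09, SE 0.71, adjusted p = 0.0224). AOS, the next enzyme, had 7700, 52438, 14659 and 20274 at 0 ppm and 4823, 6315, 8055 and 11548 at 100 ppm, and AOC1, the cyclase, had 4228, 45450, 9001 and 9624 at 0 ppm and 1412, 1369, 2096 and 4165 at 100 ppm. In these 3 genes replicate 2 was again the highest 0 ppm sample and replicate 1 the lowest, and the groups overlapped for LOX2 and AOS and did not for AOC1. LOX2 was not called without replicate 2 at 0 ppm or without replicate 1 or 2 at 100 ppm (1.36 to 2.63 log2 units over the samples left out), AOS in these 3 cases and without replicate 4 at 0 ppm (0.85 to 1.77), and JAZ1, a repressor described next, without replicate 2 at 0 ppm or replicate 1 at 100 ppm (1.42 to 2.15). Of 17 JAZ repressors and jasmonate output genes 7 rose and none fell (median 1.05): MYC2, the bHLH factor that JAZ proteins hold back, had 1263, 10234, 3567 and 4353 at 0 ppm and 83.7, 244, 1227 and 1110 at 100 ppm, and JAZ1 averaged 814 ± 606 at 0 ppm and 215 ± 110 at 100 ppm. JAZ10 (1.33, adjusted p = 0.239), VSP2 (0.38, adjusted p = 0.776), a storage protein used as a jasmonate readout, and OPR3 (1.06, adjusted p = 0.0587) were not called. Of the 68 genes that the study lists as jasmonate responsive 25 rose and none fell (median 1.39), and of its 62 OPDA responsive genes, OPDA being the precursor of jasmonate, 13 rose and 2 fell (median 0.64). These counts depend on single leaves. Without replicate 2 at 0 ppm, 2 synthesis genes, 3 JAZ and output genes, 12 jasmonate responsive and 4 OPDA responsive genes rose, and without replicate 1 at 0 ppm the numbers were 9, 7, 41 and 20. Without both of them they were 2, 6, 17 and 6. Without replicate 1 at 100 ppm they were 2, 5, 15 and 6, and without replicate 2 at 100 ppm 2, 7, 18 and 5. Without replicate 4 at 0 ppm 4 synthesis genes rose, and without replicate 3 at 100 ppm 8 OPDA responsive genes. Under equal totals 40 jasmonate responsive and 20 OPDA responsive genes rose, where 2529 of all 21469 genes tested rose in place of 984.

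**Figure D3:**
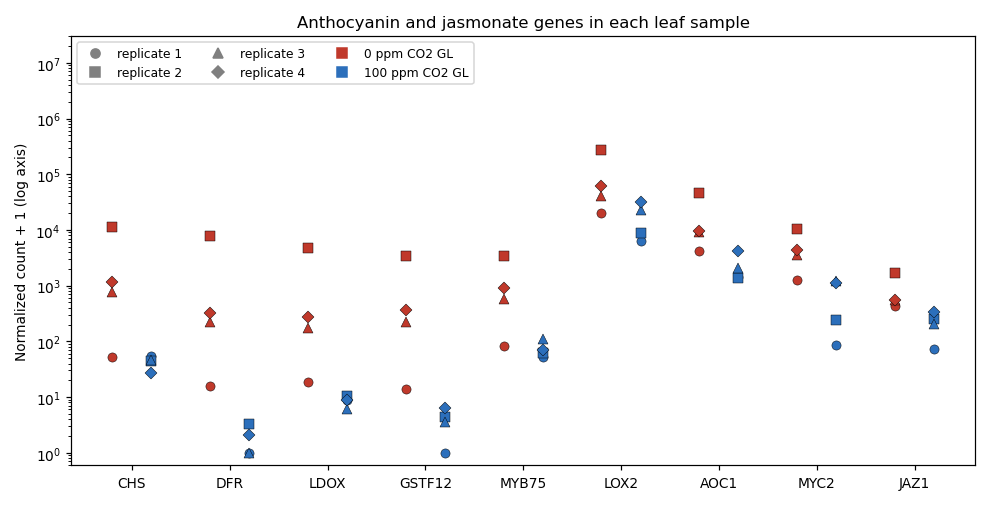
Normalized count plus 1 on a log axis for 5 anthocyanin and 4 jasmonate genes, with 0 ppm samples left of 100 ppm samples and a symbol for each replicate number. Replicate 2 is the highest and replicate 1 the lowest 0 ppm sample in each of the 9 genes, as in CHS with 11262 and 51.4.

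Of 16 rapid stress factors 5 rose and none fell (median 0.87), and ZAT10, a zinc finger factor, had 1466, 1149, 1439 and 1268 at 0 ppm and 217, 350, 357 and 544 at 100 ppm (log2 difference 1.92, SE 0.30, adjusted p = 2.22e-05). WRKY53, a factor of leaf senescence and defense, averaged 2016 ± 297 at 0 ppm and 733 ± 144 at 100 ppm. Neither gene had overlapping groups. Of 59 WRKY factors, a family chosen after its values were seen, 13 rose and none fell. The counts were 12 rapid stress factors and 23 WRKY factors under equal totals, where 2529 of all 21469 genes tested rose in place of 984. Without replicates 1 and 2 at 0 ppm 9 rapid stress factors rose. The starvation list gave no common direction: of 27 genes 1 rose and 1 fell (3.7% each, median -0.10). Of all genes tested 4.58% rose and 8.16% fell. DIN6/ASN1 (-1.43, adjusted p = 0.125), DIN1/SEN1 (0.02) and DIN10 (0.25) were not called. The gene that fell was BT2, a nitrate- and sugar-responsive BTB protein, at -1.86 log2 units (adjusted p = 0.0208) with groups that overlapped, and it was not called without replicate 3 or 4 at 0 ppm or replicate 2 at 100 ppm (-2.38 to -1.47 over the samples left out). The riser was BCAT2, a branched-chain amino acid transaminase, with 1092, 3440, 1427 and 1190 at 0 ppm and 230, 64.1, 115 and 119 at 100 ppm. DIN6/ASN1 was called lower in the limma fit of the 16 GL samples (adjusted p = 0.0308). It was also called lower in that of the 8 samples, without and with the replicate number as a block (0.0331 and 0.0175). With no test, DIN6/ASN1, DIN1/SEN1 and DIN10 averaged 55.7 ± 11.9, 294 ± 165 and 2694 ± 1653 at 400 ppm in GL. At 0 ppm they averaged 170 ± 122, 1942 ± 1133 and 7999 ± 3901. At 100 ppm they averaged 403 ± 104, 1656 ± 372 and 6094.5 ± 959. The sugar transporter STP1 fell, at 5938 ± 1824 in 0 ppm samples and 12936 ± 1806 in 100 ppm samples, and its difference of -1.17 log2 units was -0.95 without replicate 2 at 0 ppm. It was not called there, under equal totals (-0.80) or after quantile normalization (-0.97). Of 13 nitrate and ammonium genes 4 rose and 3 fell (1 fell under equal totals or quantile normalization, and 2 rose without replicate 4 at 100 ppm). Nitrate reductase NIA1 rose 3.23-fold, at 2891 ± 1046 in 0 ppm samples and 895 ± 133 in 100 ppm samples. The nitrate reductase NIA2, with the higher mean in both groups, averaged 10318 ± 4090 at 0 ppm and 13592 ± 2493 at 100 ppm. NIA2 was not called (-0.48, adjusted p = 0.307). The plastid glutamine synthetase GLN2 fell, at 14144 ± 2962 in 0 ppm samples and 30758 ± 1624 in 100 ppm samples, while the cytosolic form GLN1;4 rose, at 2454 ± 1426 in 0 ppm samples and 482 ± 307 in 100 ppm samples. GLN2 was under the 2-fold threshold with equal totals (-0.78) and quantile normalization (-0.74). Of 21 iron genes 1 rose and 3 fell (3 rose and 1 fell under equal totals, and 1 fell after quantile normalization, without replicate 2 at 0 ppm or without replicate 4 at 100 ppm), and of 18 copper and superoxide dismutase genes none rose and 3 fell. FER1, the iron store ferritin, rose, at 8025 ± 2879 in 0 ppm samples and 2064 ± 444 in 100 ppm samples, and FSD1, the iron superoxide dismutase of the plastid, fell, at 3782 ± 993 in 0 ppm samples and 15113 ± 2225 in 100 ppm samples. The copper enzymes CSD1 (0.76, adjusted p = 0.0787) and CSD2 (-0.12) were not called. Of 22 glucosinolate synthesis genes 4 rose and none fell, and 2 or fewer rose without replicate 2 at 0 ppm or replicate 1, 2 or 3 at 100 ppm, with 1 as the lowest number. MAM3, of glucosinolate chain elongation, averaged 393 ± 108 at 0 ppm and 58.4 ± 72.5 at 100 ppm. Of 10 sulfur genes 2 rose and none fell (4 rose under equal totals or without replicate 1 at 0 ppm, and 1 without replicate 2 at 0 ppm). LSU1, a low sulfur response gene, averaged 277 ± 210 at 0 ppm and 24.8 ± 22.9 at 100 ppm, and its groups overlapped.

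Of 21 circadian clock genes 1 rose and 1 fell, 4.76% each way, where 4.58% of all genes tested rose and 8.16% fell. PRR3, a pseudo-response regulator, rose, at 824 ± 258 in 0 ppm samples and 327 ± 37.4 in 100 ppm samples, and CHE, a TCP factor that binds the CCA1 promoter, fell, at 662 ± 147 in 0 ppm samples and 2561 ± 402 in 100 ppm samples. Under equal totals 4 clock genes rose, where 2529 of all 21469 genes tested rose in place of 984. GI and TOC1 were 0.77 and 0.71 log2 units higher with adjusted p = 0.00254 and 0.000288 but under the 2-fold threshold, and CCA1 differed by 0.08. Of 11 heat shock genes and factors none was higher and 1 (9.09%) was called lower, near the share over all genes. This was the factor HSFA2, at -1.22 log2 units (adjusted p = 0.0489) with groups that overlapped. HSFA2 was called in 8 of 23 alternatives only, not under equal totals or quantile normalization, nor without replicate 2, 3 or 4 in either group. Starch synthesis had none of 17 genes called and phosphate starvation none of 14 (4 higher under equal totals). Abscisic acid genes had 3 of 24 higher (9 under equal totals, and 1 without replicate 4 at 0 ppm or replicate 1 at 100 ppm), and the singlet oxygen and hydrogen peroxide responsive lists of the study had 9 higher and 2 lower of 49 and 4 higher and 4 lower of 40 (10 higher and 2 lower under equal totals, and 2 lower without replicate 3 or 4 at 0 ppm or replicate 2 at 100 ppm).

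The 400 and 1000 ppm GL groups are given beside the pair with no test. The fallen genes were at their highest at 100 ppm in 1408 of 1752 cases (80.4%), and the risen genes at 0 ppm in 737 of 984 (74.9%). The choice of falls leaves only 100, 400 and 1000 ppm open as the highest level and that of rises only 0, 400 and 1000 ppm, so nothing is read from these shares. EXPA8 averaged 152 ± 165, 3787 ± 919, 950 ± 225 and 795 ± 626 normalized counts at 0, 100, 400 and 1000 ppm, and LHCB2.2, an antenna gene, averaged 14410 ± 5395, 95305 ± 9523, 48874 ± 3908 and 28157 ± 17791. AT2G10940 averaged 192 ± 208, 15894 ± 8770, 14104 ± 3599 and 16257 ± 23285, with a spread at 1000 ppm wider than its mean. DFR averaged 2060 ± 3747, 0.848 ± 1.1, 1.4 ± 1.62 and 73.9 ± 136, and GLN1;4 averaged 2454 ± 1426, 482 ± 307, 515 ± 284 and 2453 ± 1305.

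**Figure D4:**
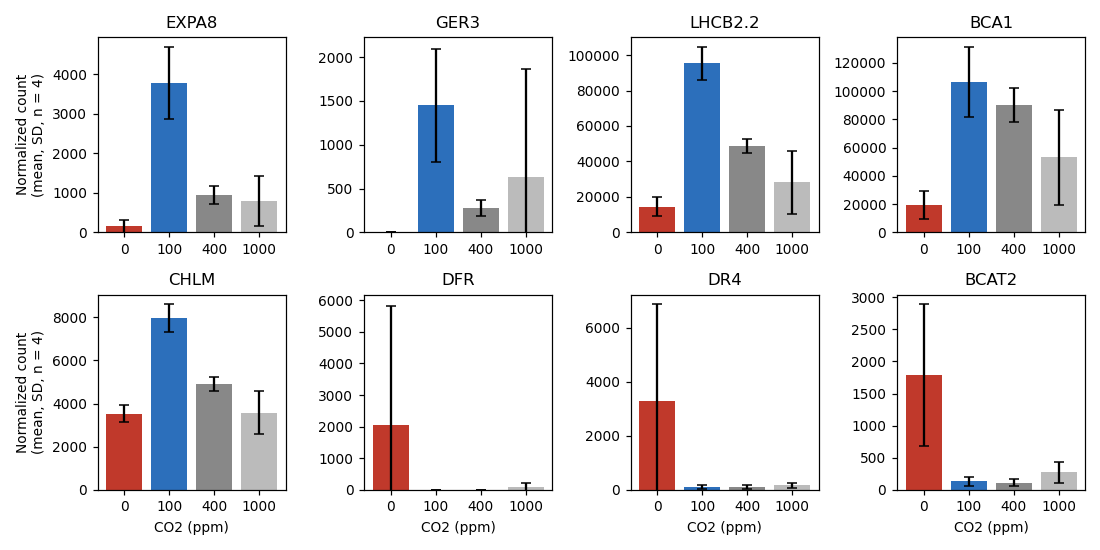
Mean normalized count with SD (n = 4) of 8 genes at 0, 100, 400 and 1000 ppm CO2 in GL, each on its own axis from 0. EXPA8, GER3, LHCB2.2, BCA1 and CHLM have their highest bar at 100 ppm, and DFR, DR4 and BCAT2 have theirs at 0 ppm.

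The same step of 0 against 100 ppm under PSI-PI light, on other leaves, gave 2108 changed genes (9.82% of the genes tested), 764 higher and 1344 lower. In the same direction in both lights were 1193 genes, which are 43.6% of the GL list and 56.6% of the PSI-PI list, and 17 genes went opposite ways. DFR had a high mean with a wide spread in the absence of CO2 in both lights. It averaged 2060 ± 3747 in GL and 795 ± 1343 under PSI-PI at 0 ppm, with a difference between the 2 responses of 2.28 log2 units (adjusted p = 0.66). A test of that difference was below the threshold for 165 genes (0.769%), of which 50 were also called in GL, 62 with the higher difference in GL and 103 with the lower. The number was 94 without replicate 3 at 0 ppm in GL, 107 without replicate 1 at 100 ppm under PSI-PI and 74 with a variance for each group. AT5G57760 averaged 3.36 at 0 ppm and 172 at 100 ppm in GL, against 323 at 0 ppm and 26 at 100 ppm under PSI-PI, a difference between the lights of -9.37 log2 units (adjusted p = 1.33e-06). ERF9, a transcription factor that responds to ethylene, averaged 74.3 at 0 ppm and 139 at 100 ppm in GL, against 487 at 0 ppm and 63 at 100 ppm under PSI-PI (-4.04, adjusted p = 2.46e-08). ERS2, an ethylene receptor, averaged 17.5 at 0 ppm and 39.3 at 100 ppm in GL, against 132 at 0 ppm and 33.6 at 100 ppm under PSI-PI (-3.15, adjusted p = 1.03e-05). Without replicate 2 at 0 ppm neither gene was called in GL (-0.77 and -0.96), nor under equal totals (-0.74 and -0.79). SIP2, named seed imbibition 2 in RefSeq, rose in GL, at 14451 at 0 ppm and 3522 at 100 ppm, and averaged 14896 at 0 ppm and 17465 at 100 ppm under PSI-PI (2.15, adjusted p = 6.64e-05). NAC6, a regulator of leaf senescence also called ORE1, rose in GL, at 195 at 0 ppm and 47.3 at 100 ppm, and averaged 1034 at 0 ppm and 23.497 at 100 ppm under PSI-PI, a difference between the lights of -3.32 log2 units (adjusted p = 0.00346). IAA29 of the Aux/IAA genes also differed between the lights, by -3.63 log2 units (adjusted p = 0.0437). Genes named outside the rule given with the methods, such as IAA29, XTH4, SAUR22, PIP1C, TGG1, FAMA, LHCB1.4, UF3GT, AT5MAT, F3'H and UGT75C1, were chosen after their values were seen.

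**Figure D5:**
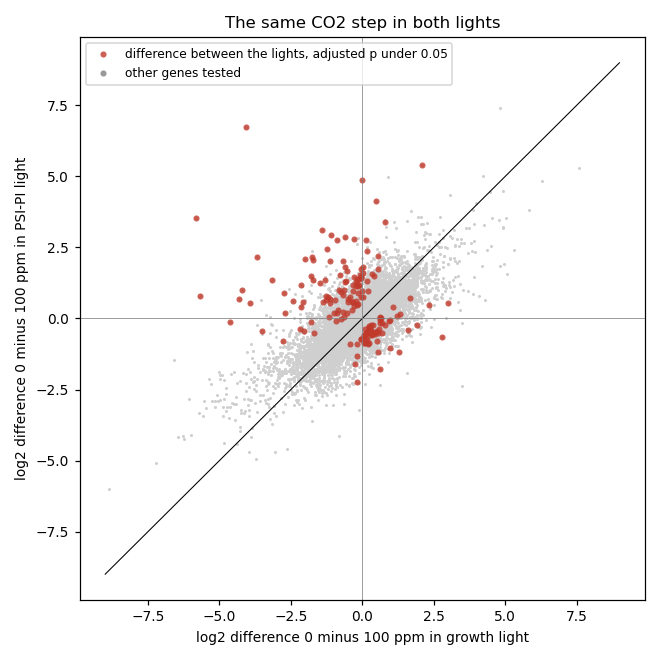
Log2 difference of 0 minus 100 ppm CO2 in GL (horizontal) and under PSI-PI (vertical) for every gene tested, with the line of equal response. The 165 genes that differ between the lights are in color and lie mostly off the main cloud, as AT5G57760 with -5.82 in GL.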

How the data were processed

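RNA of the seventh leaf was sequenced from 32 samples, in 8 groups of 4 that the methods call biological replicates. Per the study's methods and the submitters' processing notes, the authors quantified reads with Salmon 0.12 on TAIR10 cDNA and normalized them with DESeq2. The deposited table holds these normalized counts, a signal that is not whole reads (5.03% of the values were whole numbers), so sequencing depth is unknown and no count model was used. A second deposited table, with fold changes and p-values of the authors' own comparisons, was not used.

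Of 21525 genes, 56 with a sum under 10 were removed. Log2(value + 1) was fitted with limma 3.58.1 (R 4.3.3) to 8 group means with a variance trend. Genes were called where the log2 difference reached 1 in size and the Benjamini-Hochberg adjusted p was under 0.05. The difference between the 2 lights was called on the adjusted p alone. The fit was tested on simulated data. Adding 1 understates the change of low genes.

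The comparison, the 40 gene lists and the 8 families were chosen with earlier results of these data known. Genes were named by a rule: the 10 largest rises and falls among called genes without overlap and with a mean of at least 20 in either group, the key genes of each list, up to 3 called genes per list and direction with the lowest adjusted p, and up to 3 per direction that differed between the lights. Names and sequences came from RefSeq's TAIR10.1 annotation, which matched 21285 genes. Alternatives covered the filter, the pseudocount, the scaling, the variance model, the replicate block, the samples fitted, the call rule and the leaving out of samples. Equal totals and the joint leaving out of replicates 1 and 2 at 0 ppm were added after seeing the data.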

Additional observations from a re-analysis of the deposited data

Results flagged for a closer look

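In 18 of the 200 groups of 4 samples examined over the named genes (9%), the highest or lowest sample lay far from the others. Gaps were taken on the log2(normalized count + 1) scale. The gap to the nearest neighbor, as a share of the group's range, was above Dixon's 95% critical value. For normally distributed values chance does so in about 1 in 20 groups, a rate that does not hold for values tied at 0. On the log scale the high replicate 2 at 0 ppm of DFR, LDOX and CHS was not flagged. In 9 of the 18 groups the gap was 1.000, as the other 3 samples were all listed at 0. These were AT4G38820 in replicate 4 at 0 ppm, and at 100 ppm MYB114, MYB90, MYB113 and AT5MAT in replicate 1, AT4G11911 and TT8 in replicate 3, and AT5G51190 and UF3GT in replicate 4. At 0 ppm AT3G28510 was low in replicate 4 (0.850), GGAT1 in replicate 2 (0.987) and SAUR22 in replicate 3 (0.837), and F3'H was high in replicate 2 (0.954). At 100 ppm FSD1 was high in replicate 4 (0.879), FLS1 in replicate 2 (0.973) and EPF2 in replicate 1 (0.902), while GUN5/CHLH (0.915) and SIP2 (0.914) were low in replicate 1.

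The response to 0 against 100 ppm differed between GL and PSI-PI, by the test of the difference across all genes in limma, for 6 genes of the report. The difference of the responses, GL minus PSI-PI, was -9.37 log2 units for AT5G57760, -4.04 for ERF9, -3.63 for IAA29, -3.32 for NAC6, -3.15 for ERS2 and 2.15 for SIP2.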

How the results depend on the processing

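The 2736 called genes numbered 2005 to 2851 in the alternatives that kept both the deposited scaling and the call rule, and 2367 to 2851 with 1 sample left out in turn (850 to 1048 higher and 1499 to 1824 lower). Without a minimum fold change 7803 genes passed, 4004 higher and 3799 lower. Equal totals gave 2529 higher and 1081 lower genes, of which 2064 in all were called before. Quantile normalization gave 1125 higher and 1554 lower genes, of which 2425 in all were called before. The 165 genes that differed between the lights numbered 94 to 213 with 1 sample left out in turn (18 to 98 higher and 76 to 121 lower in GL), and 74 with a variance per group (12 higher and 62 lower). The genes higher in GL were 36 after quantile normalization and 25 under equal totals. The cause of these shifts was not tested. By the median in place of the mean, 1442 falls were highest at 100 ppm and 718 rises at 0 ppm. Replicate numbers did not pair the samples (correlations of deviations -0.0412, -0.0487, 0.068 and -0.151), and with the number as a replicate block 2740 genes were called, 2705 of them shared, and 189 differed between the lights. Without replicates 1 and 2 at 0 ppm 2308 genes were called.

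Of the 82 genes of the report that were called, 13 lost the call with 1 sample left out: AOS, BT2, EPF2, ERF9, ERS2, F3'H, HSFA2, JAZ1, LBD38, LOX2, MYB75, STP1 and UGT75C1. In the limma fit of the 8 samples alone LOX2 (adjusted p = 0.0831), AOS (0.0875), ERF9 (0.0633), HSFA2 (0.194), F3'H (0.268) and UGT75C1 (0.117) were not called. With the block in that fit these 6 and CHS (0.0519), LHCB1.5 (0.0752), RBCS1A (0.0769), MYB113 (0.0502), ACA1 (0.0551), LSU1 (0.0604), ERS2 (0.0706) and AT5MAT (0.0568) were not, 14 in all. With the block over all samples HSFA2 (0.0606) and F3'H (0.0508) were not. The sign turned for genes that were not called. With 1 sample left out in turn, the log2 difference ran over -0.316 to 0.479 for DIN1/SEN1, -0.0198 to 0.609 for DIN10, -0.117 to 0.0761 for FAMA, -0.697 to 1.17 for VSP2, -0.224 to 0.0375 for SLAC1, -0.142 to 0.237 for CCA1 and -0.425 to 0.0501 for CSD2. Quantile normalization gave CSD2 0.0525. Equal totals gave MYBL2 0.14, HT1 0.11, SLAC1 0.29, CSD2 0.24 and FAMA 0.34. Without replicates 1 and 2 at 0 ppm DIN10 was -0.11, VSP2 -0.0545 and CSD2 0.11. Since depth is unknown, the counting error of low values is unknown and was not modelled, and a gene listed at 0 is not shown to be silent.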
